A study of Zea mays with 64 samples.

Results

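Leaf DNA of 2 maize families, NE72 and NE73, was compared for the Mu transposon insertions carried by each seedling. The comparison takes all leaf libraries of both families, 7 plants of NE72 and 7 of NE73, or 14 of the 64 libraries in the series. Each plant is a sibling within its family, grown from a separate kernel. NE72 was sired by the Mu-active plant ND67-51 and NE73 by the Mu-active plant ND67-40, and both families, like the fathers themselves, came from crosses with a Mu-inactive ear parent in the W22 inbred background. The labels call the crosses of the families bulk pollen crosses and name no treatment or further allele. The first leaf was taken 10 to 13 days after sowing. Its DNA, fragmented to about 1000 bp, was joined to an adapter, and sequence next to Mu ends was enriched by PCR. Leaf DNA came from a column kit and endosperm DNA from a CTAB extraction, so tissue and extraction cannot be told apart. The fathers were represented by 1 endosperm library each, so differences between the fathers have no replicate. Endosperm libraries of the same 14 kernels were used beside the leaf values.

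Mu elements are DNA transposons whose movement depends on a transposase supplied by an autonomous element of the family. In maize they are known for frequent insertion into or near genes, for duplicating a short stretch of host DNA at the target, and for moving late in the development of somatic tissue as well as in the cells that lead to gametes. An insertion carried by the gamete is expected in every cell of the seedling, whereas an insertion made during leaf growth is present in the descendants of 1 cell only. The number of counts at a site relative to the library total was used here as the level of an insertion.

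The families were chosen with measured values in view, NE72 as the family with many new insertions and NE73 as the family with few. Differences between the families are therefore given as a description, without a test. Tests are given only for comparisons within a family. A new high-level insertion was a site at 1000 or more CPM (CPM: the count divided by the library total, times 1000000) in the leaf of a plant and with under 10 counts in each of the 4 father libraries of the series. An inherited insertion was one that the authors listed for the father and not for the Mu-inactive parent, that was not present in the leaf of all 30 plants of the series, and that reached the same 1000 CPM in the leaf. A low-level site had 3 or more counts, less than 1000 CPM, under 10 counts in each father library, and was not on the authors' list.

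Leaf libraries were deeper in NE72. Their totals ranged from 25037 to 687094 counts in NE72, with a median of 377381, and from 38627 to 338457 in NE73, with a median of 138879. The level of 1000 CPM therefore stood for 25 to 687 counts in NE72 and for 38.6 to 338 counts in NE73. The ranges of totals overlapped, and the deepest library and the shallowest were both of NE72, plants 3 and 8. The father libraries held 610687 counts for ND67-51 and 393329 for ND67-40, so the limit of 10 counts lay at 16.4 CPM in ND67-51 and 25.4 CPM in ND67-40.

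NE72 seedlings carried many more new high-level insertions than NE73 seedlings. The number per plant was 45 at the lowest, 56 at the median and 62 at the highest in NE72, against 6, 14 and 17 in NE73. No NE73 plant came near the lowest NE72 plant. The mean was 55.3 ± 5.99 in NE72 and 11.4 ± 4.58 in NE73 (SD, n = 7 each), which is a difference of 43.9 insertions and a ratio of 4.84. The shallowest library, plant 8 of NE72, had the highest number, 62. With all 14 libraries sampled to its 25037 counts, the means were 55.1 ± 5.90 in NE72 and 11.5 ± 4.57 in NE73, so the depth of the libraries moved the difference by less than the spread between plants.

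**Figure D1:**
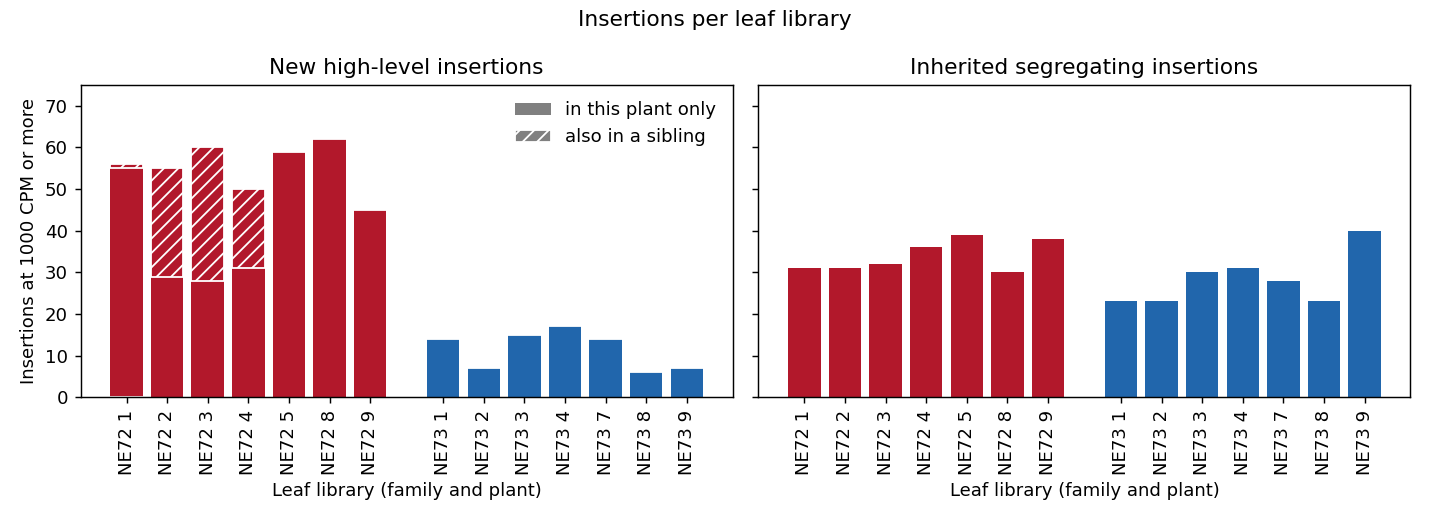
Bars show, for each leaf library on the horizontal axis, the number of new high-level insertions (left) and of inherited segregating insertions (right) at 1000 CPM or more. Hatching marks new insertions also found at that level in a sibling. New insertions lie between 45 and 62 in NE72 and between 6 and 17 in NE73, whereas inherited insertions of the families overlap, at 30 to 39 in NE72 and 23 to 40 in NE73.

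The threshold of 1000 CPM fell in a sparsely filled range of levels. Among sites that met the father rule, an NE72 library held on average 4.14 ± 1.21 at 500 to under 1000 CPM, 4.57 ± 2.07 at 1000 to under 2000 CPM and 35.9 ± 3.80 at 4000 to under 8000 CPM (SD, n = 7). An NE73 library held 2.00 ± 1.73, 0.571 ± 0.535 and 3.86 ± 2.04 sites in the same ranges (SD, n = 7), with a further 5.43 ± 2.88 at 8000 to under 16000 CPM. New insertions thus formed a group of their own at high levels in both families, and this group lay at higher CPM in NE73.

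**Figure D2:**
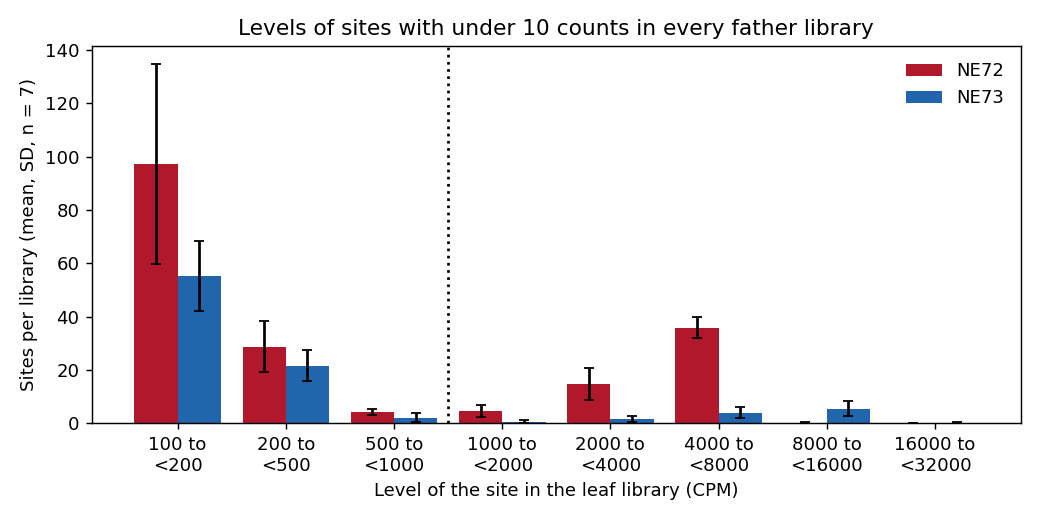
Bars give the mean number of sites per leaf library (SD, n = 7) in each range of level, for sites with under 10 counts in every father library and at least 3 counts in the leaf. The dotted line marks 1000 CPM, and few sites lie between 500 and 2000 CPM in either family.

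The sites nearest the threshold were of both kinds. Just above it in NE72 lay a site on chromosome 6 from 114050817 to 114050825 in plant 2, with 1018 CPM in leaf and 1258 CPM in endosperm, and a site on chromosome 7 from 43421754 to 43421762 in plant 4, with 1041 CPM in leaf and 0 counts in endosperm. Just below it lay a site on chromosome 3 from 5204345 to 5204353 in plant 8, with 998.5 CPM in leaf and 4167 CPM in endosperm, and a site on chromosome 4 from 162915774 to 162915782 in plant 3, with 989.7 CPM in leaf and 0 counts in endosperm. In NE73 the nearest sites above were at 1450 CPM on chromosome 5 from 11257372 to 11257380 in plant 9, with 10 endosperm counts, and at 1476 CPM on chromosome 5 from 17442863 to 17442871 in plant 8, with 0 endosperm counts. The nearest below were at 957.7 CPM on chromosome 7 from 1555816 to 1555824 in plant 8, with 0 endosperm counts, and at 883.4 CPM on chromosome 4 from 250673708 to 250673716 in plant 7, with 34 endosperm counts. Coordinates are those of the deposited table, whose genome build is not given in the sources used here.

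Counted over the family, NE72 had 345 distinct new insertions and NE73 had 80. In NE72, 309 of them were at a high level in 1 plant, 30 in 2 plants and 6 in 3 plants, whereas all 80 of NE73 were in 1 plant each. No new insertion of either family reached 1000 CPM in a leaf of another family. The sharing was concentrated in NE72 plants 2, 3 and 4: 22 new insertions were common to plants 2 and 3, 15 to plants 3 and 4 and 9 to plants 2 and 4, and plants 5, 8 and 9 shared none with any sibling. Among the 22, 1 site on chromosome 3 from 207133564 to 207133572 was also in plant 1. The families were also apart without the shared insertions, with a smaller difference of 32.7 insertions per plant, against 43.9 with them. With only insertions of a single plant, the mean was 44.1 ± 14.8 in NE72 and 11.4 ± 4.58 in NE73, and the lowest NE72 plant, at 28, still stood above the highest NE73 plant, at 17.

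The 36 shared insertions lay on 9 chromosomes. Among those in the most plants, the 3 with the highest mean level were all in plants 2, 3 and 4. The first, on chromosome 3 from 240698698 to 240698706, had 6572, 5618 and 5898 CPM in the leaves of plants 2, 3 and 4 (mean 6029 ± 490, SD, n = 3) and 5950 ± 956 CPM in their endosperm. The second, on chromosome 8 from 20237934 to 20237942, averaged 5527 ± 848 CPM in leaf and 3575 ± 1454 CPM in endosperm. The third, on chromosome 8 from 12335066 to 12335074, averaged 4534 ± 465 CPM in leaf and 4861 ± 730 CPM in endosperm. The library of the father ND67-51 held 0, 0 and 1 counts at these sites. Of the 36 shared insertions, 33 had 0 counts in the father's library and 3 had 1 to 9.

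By definition, new insertions had under 10 counts in each father library, and most had 0 counts in that of their own father. In NE72, 309 of 345 had 0 counts in the library of ND67-51 and 36, or 10.4%, had 1 to 9, with 6 as the highest count. In NE73, 78 of 80 had 0 counts in the library of ND67-40 and 2, or 2.50%, had 1 to 9, with 2 as the highest. The library of ND67-51 was the deeper one, and the part of this depth in the difference was not tested. Low counts were also common in leaf libraries of plants without the insertion: 146 of 309 insertions of a single NE72 plant, or 47.2%, and 37 of 80 in NE73, or 46.2%, had counts in other leaf libraries, up to 21 counts for NE72 insertions and up to 47 for NE73 insertions. The authors' deposited table called 374 of the 387 plant-insertion pairs of NE72 and 75 of the 80 of NE73 as transmitted for that plant.

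The highest private insertions had higher CPM in NE73, as did insertions that every plant carried. The median level of 30 such insertions on the log2(CPM + 1) scale was 13.09 ± 0.13 in NE72 and 14.03 ± 0.11 in NE73 (SD, n = 7 each), a difference of -0.95, against -0.69 for new and -0.93 for inherited insertions. In NE72 the highest private insertions were on chromosome 4 from 172416314 to 172416322 in plant 8, with 8388 CPM in leaf and 4834 CPM in endosperm, on chromosome 5 from 163377874 to 163377882 in plant 8, with 7948 CPM in leaf and 4834 CPM in endosperm, and on chromosome 2 from 30191351 to 30191359 in plant 9, with 7731 CPM in leaf and 4460 CPM in endosperm. In NE73 the highest were on chromosome 5 from 878129 to 878137 in plant 7, with 18832 CPM in leaf and 14732 CPM in endosperm, on chromosome 10 from 125294138 to 125294146 in plant 2, with 12857 CPM in leaf and 9857 CPM in endosperm, and on chromosome 1 from 81229601 to 81229609 in plant 9, with 12608 CPM in leaf and 8339 CPM in endosperm. All 6 had 0 counts in the library of their father. The leaf level was above the endosperm level in each, and the 6 were chosen by their leaf level.

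New insertions of both families had the footprint typical of Mu. The start and end coordinates spanned 9 bp, the length of the target duplication that Mu elements make, at 341 of 345 distinct sites in NE72 and 78 of 80 in NE73. In the whole table, however, 99.99% of sites span 9 bp, so this feature does not set new insertions apart. In NE73, 3 of the 80 sites lay 2 bp apart from each other on chromosome 4 between 250673710 and 250673722 in plant 7, at 7803, 8497 and 5306 CPM, beside the site at 883.4 CPM named above. Whether they are 1 insertion was not tested. Merging all sites within 10 bp gave means of 53.6 in NE72 and 10.9 in NE73.

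New insertions were spread over the 10 chromosomes, and NE72 had more than NE73 on each. The number of distinct new insertions per 100 Mb ranged from 9.20 on chromosome 9 to 19.7 on chromosome 4 in NE72, and from 2.33 on chromosome 6 to 5.51 on chromosome 4 in NE73. The ratio of NE72 to NE73 was lowest on chromosome 9, with 15 against 7 insertions, and highest on chromosome 8, with 33 against 5. Over all chromosomes it was 345 against 80. The NE73 numbers per chromosome are small, and differences of the ratio between chromosomes were not tested. The outer chromosome was taken as the 10% of the covered length next to either end. It held 38.6% of the distinct new insertions in NE72 and 46.2% in NE73, against 36.2% of all 906106 sites with a leaf count. Per plant, the share of new insertions in the outer chromosome was 31.7% to 45.8% in NE72 and 33.3% to 57.1% in NE73, with overlapping ranges. The share of inherited insertions there was 37.4% ± 6.13 in NE72 and 24.0% ± 7.54 in NE73 (SD, n = 7 each). Siblings draw inherited insertions from the set of the same father, so they are not replicates of where that set lies. Their SD shows only how the set segregated. In the sets themselves, 25 of 63 insertions, or 39.7%, lay there for the father of NE72. For the father of NE73 it was 13 of 50, or 26%. This difference between the fathers has no replicate.

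Beside the 36 sites shared by NE72 siblings at the same base, distances were taken between new insertions at different bases. Within NE72, 12 of 345 had another new NE72 insertion within 10 kb. The closest pairs were 289 bp apart on chromosome 8, in plants 8 and 2, and 294 bp apart on chromosome 4, in plants 8 and 4. No NE72 insertion had an NE73 insertion within 10 kb, and 3 had one within 100 kb. No site was new in both families. The numbers that random placement would give were not computed, so these counts are not read as clustering or as avoidance.

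The level of a new insertion in leaf was compared with that of inherited insertions in the same library. In NE72 the median level per plant was 4642 ± 308 CPM for new insertions and 4706 ± 511 CPM for inherited ones (SD, n = 7). The difference of medians on the log2(CPM + 1) scale was -0.02 ± 0.14, with new insertions higher in 2 plants and lower in 5 (exact two-sided sign-flip permutation p = 0.766). In NE73 the median was 7641 ± 1824 CPM for new insertions and 8949 ± 1015 CPM for inherited ones (SD, n = 7). The difference was -0.26 ± 0.29 on the log2 scale, with new insertions lower in 6 of 7 plants (exact sign-flip p = 0.0469). After Benjamini-Hochberg adjustment over the 6 tests reported here, the adjusted exact p was 0.766 in NE72 and 0.263 in NE73. With 7 plants the smallest p of a test is 0.0156, which becomes 0.0938 if only that test of the 6 is low, so a single test could not pass 0.05 after adjustment. A new insertion below 50% of the plant's median inherited level was found 41 times among 387 in NE72, or 10.6%, and 16 times among 80 in NE73, or 20%. For inherited insertions the same count was 28 of 237 in NE72, or 11.8%, and 11 of 198 in NE73, or 5.56%. As counted, the share below 50% was similar for both classes in NE72 and higher for new insertions in NE73. The NE73 difference was not tested. Inherited insertions also had to be on the authors' list for the father, whereas new insertions had no such condition. New pairs not listed for their plant, 13 in NE72 and 5 in NE73, had medians of 31.4% and 26.4% of the inherited level. This unlike filter enters the comparison of the classes. Both classes were cut at 1000 CPM, which lies nearer to the median inherited level in NE72 than in NE73. The shares are therefore not comparable between the families.

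New insertions were nearly all present in the endosperm of the same kernel. The endosperm feeds the embryo and descends from its own fertilisation, by the other sperm of the pollen grain that gave the embryo. Of the plant-insertion pairs found in leaf, 374 of 387 in NE72 and 76 of 80 in NE73 had 3 or more endosperm counts, and none had 1 or 2. The median difference of leaf minus endosperm level per plant was 0.09 ± 0.14 on the log2(CPM + 1) scale in NE72 (SD, n = 7; higher in leaf in 5 of 7 plants, exact sign-flip p = 0.156, adjusted 0.263). In both families the new insertions entered by their leaf level, with no condition on endosperm, which raises leaf over endosperm. The tests therefore cannot tell a difference of tissues from this choice. Inherited insertions, chosen by the same leaf level but also listed for the father, gave -0.02 ± 0.09 in NE72 (exact sign-flip p = 0.609). The NE72 value was 0.06 without plant 8, and it was 0.13 for insertions at 500 CPM or more and 0.11 at 2000 CPM or more, each with an unadjusted exact p of 0.0469. In NE73 the difference was 0.55 ± 1.31 (higher in leaf in 5 of 7 plants, exact sign-flip p = 0.188, adjusted 0.263), with 0.08 ± 0.15 for inherited insertions (exact p = 0.219). The NE73 mean rested on plant 8, and without that plant it was 0.05. It was 1.34 at 500 CPM or more and 0.11 at 2000 CPM or more. Counted in endosperm, at 1000 CPM and 10 counts, new insertions numbered 44 to 59 per plant in NE72 and 3 to 17 in NE73, a mean of 54.1 ± 5.08 in NE72 and 10.9 ± 5.67 in NE73 (SD, n = 7 each). The family difference was thus 43.3 insertions in endosperm, against 43.9 in leaf, again given as a description.

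The exceptions were 13 pairs in NE72 and 4 in NE73 with 0 endosperm counts. They occurred in all 7 NE72 plants, 1 to 3 in each, and in plants 2, 3 and 8 of NE73. Their leaf levels were low for new insertions. In NE72 the median was 1340 CPM, or 31.4% of the plant's median inherited level, against 98.9% for pairs with 3 or more endosperm counts. In NE73 it was 2085 CPM, or 21.6%, against 92.6%. The highest in NE72 was on chromosome 5 from 173470672 to 173470680 in plant 4, with 1006 leaf counts or 3221 CPM. The highest in NE73 was on chromosome 7 from 119610042 to 119610050 in plant 8, at 5343 CPM. Counts of 0 in the endosperm libraries concerned allow up to 40.6 to 500.1 CPM in NE72 and 42.8 to 103.5 CPM in NE73 (3 counts of the total), below the leaf level of each of these pairs. These limits cover counting error only, since copies made by PCR from 1 molecule may be counted separately. None of the 13 NE72 pairs and none of the 4 NE73 pairs was called in the authors' deposited table.

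**Figure D3:**
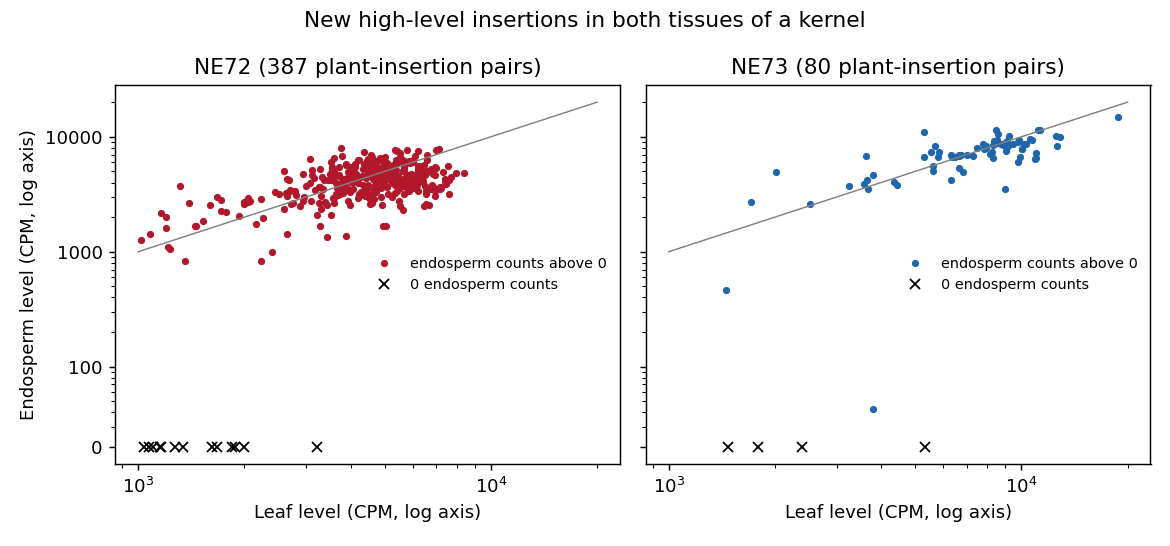
Each point is a new high-level insertion in a plant, with its leaf level on the horizontal and its endosperm level on the vertical log axis, NE72 on the left and NE73 on the right. The grey line marks equal levels, and crosses at the label 0 mark the 13 pairs of NE72 and 4 of NE73 with no endosperm count. Most points lie near the line in both families.

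The inherited load of the 2 families differed far less than the load of new insertions. A plant carried 30 to 39 inherited segregating insertions with a median of 32 in NE72, and 23 to 40 with a median of 28 in NE73. The ranges overlapped, since plant 9 of NE73 had 40, the highest of all 14. The mean was 33.9 ± 3.72 in NE72 and 28.3 ± 6.21 in NE73 (SD, n = 7 each), a difference of 5.57 insertions and a ratio of 1.20. The authors' deposited table gave 63 such insertions for the father ND67-51 and 50 for ND67-40. The number of new insertions per inherited insertion was 1.18 to 2.07 in NE72 and 0.175 to 0.609 in NE73, without overlap. New and inherited insertions together came to 89.1 ± 5.11 per plant in NE72 and 39.7 ± 7.87 in NE73 (SD, n = 7 each).

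The share of the father's insertions that reached a seedling averaged slightly over 50% in both families, and neither test passed. Scored as present at 10 or more counts and 100 or more CPM, it was 54.6% ± 6.14 in NE72 (SD, n = 7; exact sign-flip p against 50% = 0.172, adjusted 0.263), above 50% in 5 of 7 plants. It was 56.6% ± 12.4 in NE73 (SD, n = 7; exact p = 0.219, adjusted 0.263), above 50% in 4 of 7 plants. Plant 9 of NE73 received 80% of its father's insertions, and 3 of its siblings received 46% each. Without plant 9 the excess of the NE73 mean over 50% was 2.67 percentage points, against 6.57 with it. The share scored in endosperm was the same in each of the 14 plants. As background, insertions close together on a chromosome are passed on together, and 16 of the 50 insertions of ND67-40 lay on chromosome 3, whereas the most that ND67-51 had on 1 chromosome was 10 of 63, on chromosome 2.

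The inherited insertion with the highest mean level in NE72 was on chromosome 2 from 9142431 to 9142439, with 8411 ± 984 CPM in leaf and 5367 ± 988 CPM in endosperm (SD, n = 5 carriers) and 5996 counts in the father's library. In NE73 it was on chromosome 5 from 10940014 to 10940022, with 15797 ± 750 CPM in leaf and 10346 ± 882 CPM in endosperm (SD, n = 2 carriers) and 2770 counts in the father's library.

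CPM is a share of a fixed total, so a higher share for 1 class of site means a lower share for the others. A set of 30 insertions on the authors' list served as a common measure. The list gave 29 of them to the Mu-inactive parent, 29 were present in the leaf of all 30 plants of the series, and all 30 were present in each of the 14 leaf libraries. They took 24.7% ± 2.42 of leaf counts in NE72 and 48.5% ± 3.89 in NE73 (SD, n = 7 each), and the ranges of 21.6% to 27.9% in NE72 and 42.9% to 54.5% in NE73 did not overlap. New insertions took 24.9% ± 2.21 of counts in NE72 and 8.53% ± 3.79 in NE73, whereas inherited insertions took 15.4% ± 2.03 in NE72 and 24.5% ± 3.76 in NE73. The lower percentage of inherited counts in NE72 went with a higher number of inherited insertions. Per 100 counts at the common insertions, new insertions had 102 ± 16.8 counts in NE72 and 18.1 ± 8.78 in NE73, a ratio of 5.64, and inherited insertions had 62.6 ± 6.39 in NE72 and 50.9 ± 9.33 in NE73, a ratio of 1.23 (SD, n = 7 each).

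**Figure D4:**
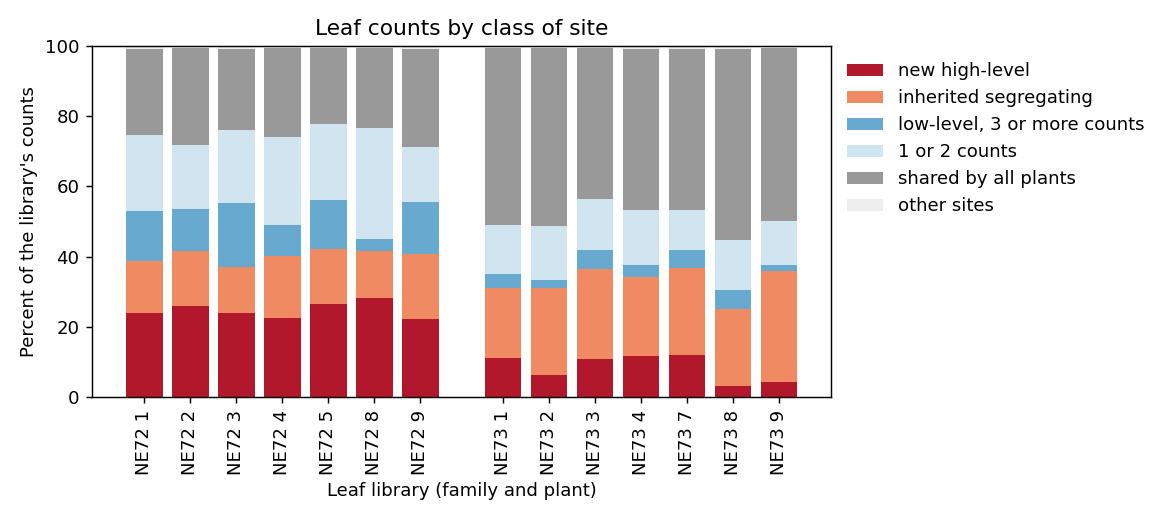
Stacked bars divide the counts of each leaf library into classes of site, in percent. Insertions shared by all plants take 21.6% to 27.9% in NE72 and 42.9% to 54.5% in NE73, and new high-level insertions take 22.4% to 28.4% in NE72 and 3.33% to 12.1% in NE73.

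Low-level leaf sites were also more numerous in NE72. In bulk DNA, an insertion in few cells and an insertion that amplifies poorly cannot be told apart at a low level. With all counts, the number per library was 204 at the lowest, 8078 at the median and 20720 at the highest in NE72, against 140, 1066 and 2422 in NE73. These numbers followed depth: the lowest NE72 value was that of plant 8, the shallowest library. Sampled to 25037 counts, the libraries had 153 to 241 low-level sites in NE72, with a mean of 193 ± 29.5, and 70.9 to 135 in NE73, with a mean of 101 ± 20.8 (SD, n = 7 each). At matched depth the families did not overlap, and the ratio was 1.92. Counting sites of 1 or more counts in place of 3, the sampled libraries had 7512 ± 809 in NE72 and 3881 ± 401 in NE73, a ratio of 1.94.

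**Figure D5:**
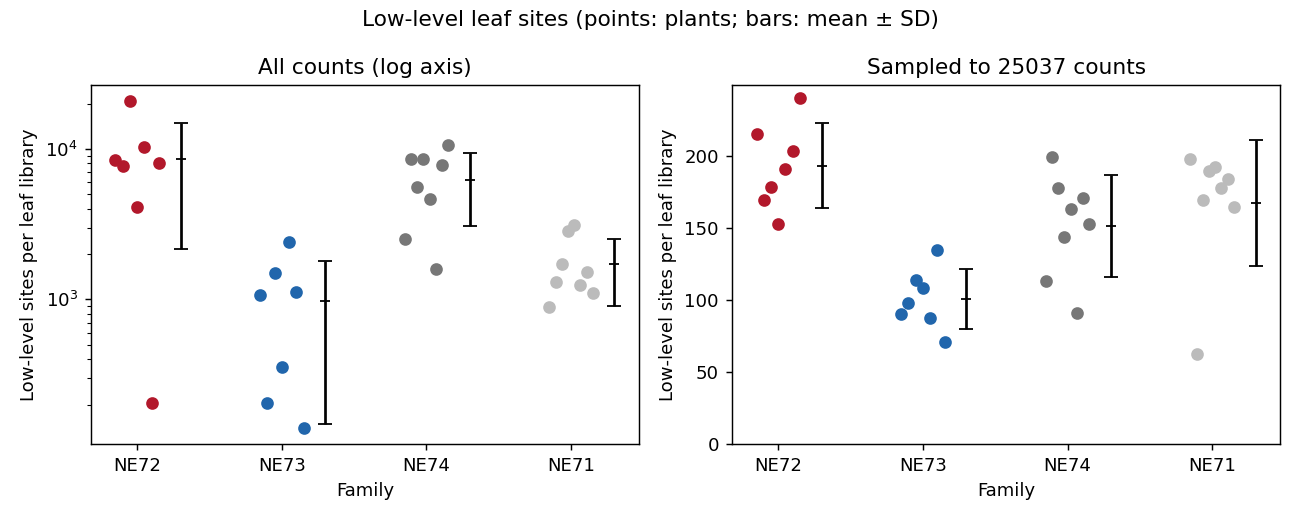
Points are leaf libraries and bars the mean ± SD, with all counts on a log axis (left) and after sampling to 25037 counts (right), for NE72, NE73 and the other 2 families of the series (n = 7, 7, 8 and 8). At matched depth NE72 lies between 153 and 241 sites and NE73 between 70.9 and 135.

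Matching on the total gives each NE73 library more counts per common insertion than an NE72 library, because common insertions take a larger part of NE73 counts. Sampled instead to the same 5708 counts at the common insertions, a setting chosen after seeing the data, the libraries had 174 ± 33.6 low-level sites in NE72 and 32.9 ± 9.59 in NE73 (SD, n = 7 each), a ratio of 5.30. The ratio of low-level sites thus depended on how depth was matched, since it was 1.92 at equal totals. In counts, low-level sites had 50.1 ± 21.0 per 100 common counts in NE72 and 8.04 ± 3.24 in NE73 with all counts used. The lowest NE72 plant, at 15.3, stood above the highest NE73 plant, at 12.2. Depth was not matched for this measure, and the value of 15.3 was that of plant 8, the shallowest library.

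The outer-chromosome share of low-level sites was 37.7% ± 0.925 in NE72 and 39.4% ± 4.44 in NE73 (SD, n = 7 each), and 99.9% or more of them spanned 9 bp in every library. On average 44.5% ± 4.92 of a plant's low-level sites in NE72 and 48.6% ± 4.49 in NE73 had 0 counts in all libraries of other plants (SD, n = 7 each), and the rest had a count in another plant's library. The highest private low-level site was on chromosome 2 from 243005081 to 243005089 in NE72 plant 2, with 368 leaf counts or 968 CPM, and on chromosome 7 from 1555816 to 1555824 in NE73 plant 8, with 133 leaf counts or 958 CPM. Both had 0 endosperm counts.

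Most low-level leaf sites lay below the level that the endosperm library of the same kernel could show, and the definition leaves out sites on the authors' list. A count was present there at 1.58% ± 0.923 of a plant's low-level leaf sites in NE72 and 0.440% ± 0.474 in NE73 (SD, n = 7 each). In the same endosperm libraries, the low-level leaf sites of siblings gave 1.11% ± 0.998 in NE72 and 0.343% ± 0.277 in NE73. Whether own sites were found more often than those of siblings was not tested. Endosperm depths were 5999 to 73941 counts in NE72 and 9096 to 87730 in NE73, and 58795 of the 59522 low-level leaf sites of NE72 and 5689 of the 6814 of NE73 were below the level of 3 counts in their endosperm library. Among sites at or above that level but under 1000 CPM in leaf, with listed sites included, 41 of 739 in NE72 and 14 of 1139 in NE73 had an endosperm count. These numbers came mostly from the deeper endosperm libraries, plant 2 giving 431 of the 739 in NE72 and plants 4 and 8 giving 361 and 368 of the 1139 in NE73.

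The mean number of new insertions in the other families of the series lay between those of NE72 and NE73. New high-level insertions averaged 35.9 ± 9.16 per plant in NE74 and 20.6 ± 7.35 in NE71 (SD, n = 8 each). Inherited insertions did not follow the same order, with 41.0 ± 8.28 in NE74 and 14.6 ± 4.03 in NE71. Low-level sites at 25037 counts averaged 152 ± 35.2 in NE74 and 168 ± 43.9 in NE71. NE72 therefore had the highest and NE73 the lowest mean of the 4 families in new insertions and in low-level sites at matched depth, but not in inherited insertions. Single plants overlapped, with 21 to 53 new insertions in NE74 and 9 to 29 in NE71. At matched depth they had 91.3 to 200 low-level sites in NE74 and 62.6 to 198 in NE71.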

How the data were processed

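The authors deposited raw counts per insertion site for 64 libraries, in a table of 1091553 sites, and a list of 1058 insertions they call transmitted, marked 0 or 1 for the Mu-inactive parent, the fathers and every seedling. Alignment used Bowtie2, per the submitters' processing notes. How sites were counted (as reads or as molecules), on which genome build and with which program is not given in the sources used here. No genome or annotation of that build was used, so no sequences or gene names are given. A count minimum can miss sites in shallow libraries. Sampling to equal totals matched the totals of the libraries but not their counts per common insertion.

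From the deposited counts, CPM was computed per library, and leaf libraries were sampled without replacement to 25037 counts (mean of 20 draws, fixed seeds). Levels used log2(CPM + 1). Tests were exact two-sided sign-flip permutations over the 7 plants of a family, with the plant as block, adjusted over 6 tests. Leaf and endosperm are paired by plant in the titles, and plant numbers do not pair plants of different families. The classification was tested on simulated data with planted sites. Python 3.11.15, numpy 2.4.6, pandas 2.3.3 and scipy 1.17.1 were used.

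Named insertions, per family, were the 3 highest private new insertions, the 3 new insertions in the most plants, the highest inherited insertion, the highest low-level site with 0 counts in other plants, and the 2 sites on either side of the 1000 CPM threshold; other sites named were chosen after their values were seen. The families, definitions and measures were chosen with earlier results of these data known. Alternatives were other levels, father rules, depths, classes, pseudocounts, merging of sites and leaving out each plant. The number of unused columns of per-sample values was 0.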

Additional observations from a re-analysis of the deposited data

Results flagged for a closer look

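Of 24 sets of 7 plants searched, 2 values stood apart from their siblings by Dixon's criterion, where chance gives about 1.2. Both were of plant 8 of NE73. For new insertions, its median leaf minus endosperm level came to 3.52 in log2(CPM + 1), against -0.07 to 0.24 in its 6 siblings. It had 3 new high-level insertions that the authors' deposited table did not call, against 0 to 1 in the siblings. Both values come from the same few sites: this plant had 6 new high-level insertions, the fewest of the 14 plants, of which 2 had 0 endosperm counts and another, on chromosome 7 from 177612122 to 177612130, had 527 leaf counts and 3 endosperm counts.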

How the results depend on the processing

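The higher number of new insertions in NE72 kept its direction in 14 alternatives and with each plant left out (42.7 to 45.6). The difference, 43.9 as reported, moved by more than the pooled SD to 36.4 with 0 counts required in all father libraries, 32.7 with insertions of 1 plant only and 37.9 with siblings' shared insertions counted for 1 plant, an alternative chosen after seeing the data. The inherited difference stayed between 3.00 and 6.21 over 6 alternatives and between 4.69 and 7.52 with each plant left out. The low-level difference, 92.6 at matched depth, was 7530 at full depth, 3635 for 1 or more counts, 3.31 for 10 or more counts, 43.4 for sites with 0 counts in other plants, 179 at the next shallowest total and 141 at equal counts of common insertions; each of these settings admits a different number of sites by construction, and the sign did not change.

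Without the replicate block of the plant, the difference of new minus inherited level was -0.02 in NE72 (exact permutation p = 0.829) and -0.26 in NE73 (exact permutation p = 0.108), and that of leaf minus endosperm level, as a difference of medians, was 0.16 in NE72 (exact permutation p = 0.0251) and 0.63 in NE73 (exact permutation p = 0.409). No tested result passed 0.05 after adjustment under any alternative run. Each alternative changed 1 test and kept the others as reported, so no sign-flip alternative could have passed. The permutations without the replicate block could have passed and did not. Leaving out each plant gave -0.0542 to 0.0075 for new minus inherited level in NE72, with the sign reversed without plant 2 (the cause was not tested). In NE73, requiring 500 CPM gave -0.53 for new minus inherited level and 2000 CPM gave -0.19, while leaf minus endosperm level was 1.34 at 500 CPM and 0.11 at 2000 CPM. Depth limits low-level sites most, since 3 counts of the shallowest library equal 119.8 CPM.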
